A study of Caenorhabditis elegans with 4 samples.

Results

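The col genes of Caenorhabditis elegans encode most of the collagens of its cuticle. They were taken as every gene of the deposited table whose symbol is col followed by a number, which gave 159 of 20389 genes. The members were thus chosen by name, although the col genes were picked as a set with earlier results of these data known. Reads were counted from poly(A) RNA of dissected adult hermaphrodite gonads, with 2 libraries from met-2;him-8 animals and 2 from him-8 animals. The him-8 animals carry him-8(tm611), which disrupts pairing and synapsis of the X chromosomes, and the met-2;him-8 animals carry met-2(n4256) as well, a mutation in the gene for an H3K9 methyltransferase. Both genotypes therefore share the him-8 mutation, and neither is wild type. Each preparation held 400 gonad arms, cut from adults near the spermatheca, and 1.2 micrograms of total RNA, and the met-2;him-8 animals had been derived recently from a balanced strain. The replicates are separate sets of dissected gonads, so a p-value measures the spread between these preparations.

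Cuticle collagens are small secreted proteins built around Gly-X-Y repeats. They are made by the epidermis, in waves that accompany each moult, and are hydroxylated, cleaved, cross-linked and laid down as the layers of the new cuticle. Members differ in timing: col-19 is an adult-specific gene of the epidermis and is widely used as a marker of the adult stage, whereas other members are made by larvae or dauers. A gonad arm holds the germ line and somatic cells such as the sheath, and it holds no epidermis, so the level of col transcripts in these preparations was itself a question. The design asks further whether these levels separate the genotypes.

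The counts summed to between 14255714 and 49848078 reads per library. The shallowest library was him-8 replicate 2, in which 3 reads, taken as the smallest detectable count, correspond to 0.210 reads per 1000000 reads on plain totals. All CPM values given here are reads per 1000000 after TMM normalization, unless stated otherwise. The met-2 transcript itself, a check of the labels, measured 25.8 and 52.7 CPM with the met-2 mutation and 127 and 212 CPM without it, and the groups did not overlap. Germ line markers such as gld-1 and rme-2 summed to between 11580 and 14760 CPM in every library. The ribosomal protein genes rps-0 and rpl-4, picked with their values known, are listed at 0 reads in all 4 libraries, so a 0 need not be a measured absence. In bulk RNA, fewer cells of a type and less RNA per cell cannot be told apart.

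The library from him-8 replicate 2 stood apart from the other 3 in col transcripts, and results that rest on it are given with and without it. Reads on col genes were 0.540% and 0.459% of all reads in met-2;him-8 replicates 1 and 2. In him-8 the shares were 0.579% in replicate 1 and 0.171% in replicate 2. Summed over all 159 genes, the level was 4883 and 5068 CPM in met-2;him-8 replicates 1 and 2, and it was 5564 and 1784 CPM in him-8 replicates 1 and 2. The him-8 libraries thus differed from each other 3.12-fold, while the met-2;him-8 libraries differed 1.04-fold. The mean was 4976 ± 130 CPM over the met-2;him-8 libraries and 3674 ± 2673 CPM over those of him-8 (SD, n = 2 libraries each). The mean of met-2;him-8 was 1.35 times that of him-8, but it was 0.894 times the level of him-8 replicate 1 and 2.79 times the level of him-8 replicate 2. The direction between genotypes therefore depended on which him-8 library was used.

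Transcripts of most col genes were detected, at levels spread over several orders of magnitude. At least 1 read was counted for 98 and 109 of the 159 genes in met-2;him-8 replicates 1 and 2, and for 130 and 97 genes in him-8 replicates 1 and 2. These were 61.6% and 68.6% of the col genes in met-2;him-8, against 60.6% and 69.6% of all genes of the table. In him-8 replicates 1 and 2 they were 81.8% and 61.0%, against 77.5% and 66.9% of all genes. Had every library been thinned to the smallest total, the expected numbers would be 95.6 and 101 in met-2;him-8 and 115 in him-8 replicate 1, which still had the most. With at least 10 reads required, 62, 73, 88 and 41 genes remained in the same order, and him-8 replicate 2, the shallowest library, had the fewest. The share of all genes at 10 reads was not computed. Over the 4 libraries together, 144 genes had reads, 73 of them in every library, 20 in 3 libraries, 31 in 2 libraries and 20 in 1 library. The other 15, col-3, col-44, col-47, col-73, col-75, col-78, col-117, col-126, col-127, col-148, col-172, col-174, col-175, col-177 and col-183, are listed at 0 reads throughout. A further view of low levels is that 30 genes, those 15 included, stayed under 3 reads in every library.

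Only 25 genes carried nearly all of the signal. A gap separated them from the rest: col-159 had a mean level of 35.8 CPM, whereas the next gene, col-135, had 9.92 CPM. The threshold of 20 CPM placed in this gap was chosen after the values were seen. The 25 abundant genes summed to 4772 and 4956 CPM in met-2;him-8 replicates 1 and 2, and to 5456 and 1719 CPM in him-8 replicates 1 and 2. That was between 96.4% and 98.1% of all col CPM. The other 134 genes together reached 112 CPM in either met-2;him-8 library, 108 CPM in him-8 replicate 1 and 64.9 CPM in him-8 replicate 2. Per kb of exon, the mean level of the abundant genes ran from 33.1 to 534 CPM per kb, with a median of 128. These levels fell between percentiles 75.4 and 98.97 of all genes with reads and an annotated length (median 92.3), whereas the remaining col genes with reads had a median percentile of 28.8. Exon length did not set the abundant genes apart, with a median of 1020 bases against 1023 bases in the remaining genes with reads.

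**Figure D1:**
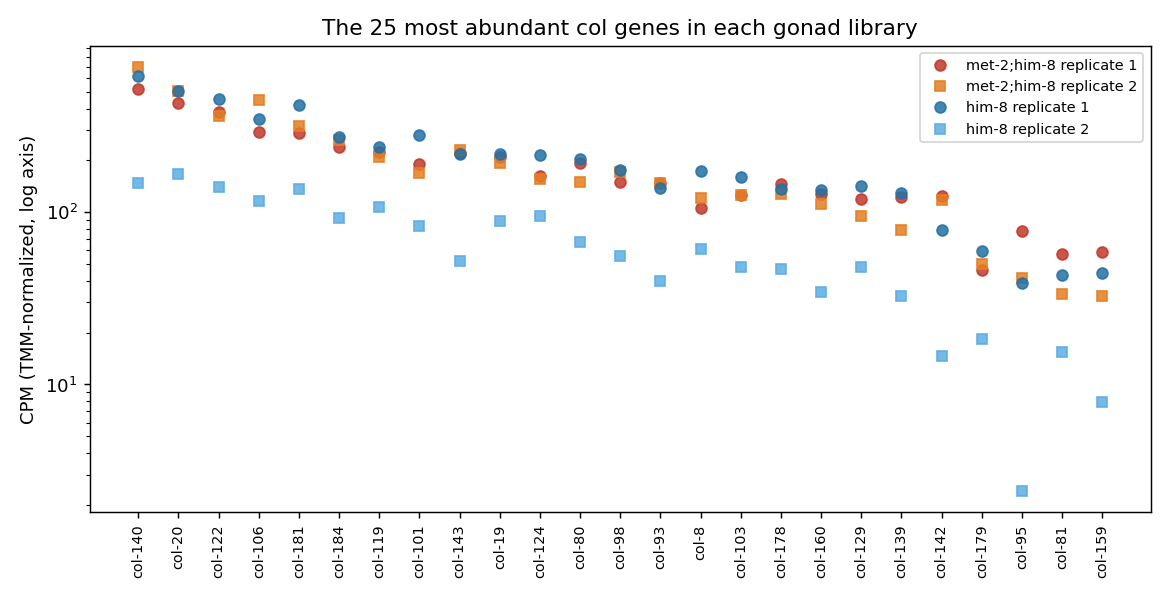
TMM-normalized CPM (log axis) of the 25 abundant col genes, ordered by mean level, with 1 point for each library. The point of him-8 replicate 2 is the lowest of the 4 for all 25 genes. The level in met-2;him-8 replicate 1 over that in replicate 2 ranges from 0.658 to 1.87, with a median of 1.05. The point of him-8 replicate 1 lies above both met-2;him-8 points for 15 genes, between them for 6 and below both for 4.

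The most abundant member was col-140 (F26F12.1, chromosome V, 5835877 to 5836794, minus strand). It had 10091 and 23231 reads in met-2;him-8 replicates 1 and 2, and 32288 and 2029 reads in him-8 replicates 1 and 2. In CPM these were 523 and 697 against 622 and 148, so him-8 replicate 1 lay between the met-2;him-8 libraries and him-8 replicate 2 lay below all 3. Its log2 fold change, met-2;him-8 over him-8, was 0.66 (standard error 0.66, Benjamini-Hochberg adjusted p = 0.940, edgeR quasi-likelihood test), and it was -0.03 without him-8 replicate 2. Next came col-20 (F11G11.11, chromosome II, 4869772 to 4870766), at 431 and 508 CPM in met-2;him-8 and at 507 and 167 CPM in him-8. For col-122 the levels were 382 and 363 CPM in met-2;him-8 and 457 and 139 CPM in him-8. Here him-8 replicate 1 was the highest library and him-8 replicate 2 the lowest, so the met-2;him-8 values lay inside the range of him-8. The levels of col-106 were 294 and 447 CPM in met-2;him-8 and 348 and 117 CPM in him-8. On the X chromosome, col-181 (12104862 to 12105917) was at 290 and 319 CPM in met-2;him-8 and at 420 and 137 CPM in him-8. Its X-linked neighbour in rank, col-184 (13469387 to 13470308), was at 241 and 264 CPM in met-2;him-8 and at 274 and 92.8 CPM in him-8. Both X-linked genes showed the order of col-122, with the extremes in the him-8 libraries.

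The adult marker col-19 (ZK1193.1, chromosome X, 421725 to 422647, plus strand) was the 10th most abundant member. It had 4028 and 6409 reads in met-2;him-8 and 11307 and 1219 reads in him-8, which correspond to 209 and 192 CPM against 218 and 89.0 CPM. The groups overlapped, since him-8 replicate 1 was above both met-2;him-8 libraries and him-8 replicate 2 below both. The log2 fold change of col-19 was 0.38 (standard error 0.44, edgeR adjusted p = 0.960), and it was -0.12 without him-8 replicate 2 and 1.16 without him-8 replicate 1. The rest of the 12 most abundant genes had the same low library. Levels of col-119 were 224 and 209 CPM in met-2;him-8 and 240 and 107 CPM in him-8. For col-101 they were 192 and 169 CPM in met-2;him-8 and 281 and 83.0 CPM in him-8, and its log2 fold change of -0.01 (standard error 0.57) was among the smallest. Transcripts of col-124 were at 162 and 155 CPM in met-2;him-8 and at 214 and 95.2 CPM in him-8, and those of col-80 at 193 and 150 CPM and at 203 and 66.9 CPM. In each of these 4 genes him-8 replicate 1 was the highest library.

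The low value of him-8 replicate 2 was shared by the whole abundant group. This library was the lowest of the 4 for 25 of the 25 abundant genes and for 50 of the 72 col genes that passed the expression filter, against 25.6% of all genes that passed it. The level in him-8 replicate 1 over that in him-8 replicate 2 ranged from 2.25 to 16.0 over the 25 genes, with a median of 3.15, and the median over all tested genes was 1.01. Between the met-2;him-8 libraries the same ratio, replicate 1 over replicate 2, ranged from 0.658 to 1.87 with a median of 1.05. Compared with both met-2;him-8 libraries, him-8 replicate 1 was higher for 15 genes, between them for 6 and lower for 4. Only those last 4, col-142, col-143, col-93 and col-95, had higher levels in each met-2;him-8 library than in each him-8 library.

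The abundant genes differed in how far their share of the col signal varied between libraries. The share of a gene is its CPM over the summed CPM of all col genes in that library. It varied less than 2-fold over the 4 libraries for 22 of the 25 genes, with a median range of 1.43-fold over the 25. The share of col-140, for example, ran from 8.31% to 13.7%. Shares did not overlap between the genotypes for 11 of the 25 genes, of which 4 had higher and 7 lower shares in met-2;him-8. On CPM, 12.5% of all genes with reads had higher and 18.9% lower met-2;him-8 libraries. Shares of a fixed total also move against each other, so the 11 are not read as a result. The steadiest was col-184, whose highest share was 1.06 times its lowest. The least steady was col-95 (Y41C4A.16, chromosome III, 11703910 to 11704885, plus strand), whose share ranged from 0.135% to 1.59%, an 11.8-fold range. Its levels were 77.6 and 41.5 CPM in met-2;him-8 and 38.7 and 2.41 CPM in him-8, so among the 25 abundant genes it had the largest ratio of him-8 replicate 1 over him-8 replicate 2. The other 2 genes past a 2-fold range were col-142, at 3.11-fold, and col-159, at 2.69-fold. Transcripts of col-142 (T15B7.4, chromosome V, 6831169 to 6832195, plus strand) were at 124 and 117 CPM in met-2;him-8 and at 79.3 and 14.6 CPM in him-8. The groups did not overlap, but the him-8 libraries lay further from each other than him-8 replicate 1 lay from the lower met-2;him-8 library. The log2 fold change was 1.36 for col-142 (standard error 0.77, adjusted p = 0.891) and 1.52 for col-95 (standard error 1.17, adjusted p = 0.914), both from edgeR. Both calls changed with no expression filter, where the adjusted p was 0.0111 for col-142 and 0.0152 for col-95. Without him-8 replicate 2 the log2 fold changes were 0.61 and 0.62. An exon of col-142 overlaps the coding gene T15B7.14 on the opposite strand, and one of col-143 overlaps T15B7.15 likewise. Whether the counting used strand is not known. Levels of col-143 (T15B7.3, chromosome V, 6835637 to 6836646) were 222 and 230 CPM in met-2;him-8 and 218 and 52.01 CPM in him-8. For col-93 they were 147 and 148 CPM in met-2;him-8 and 138 and 39.96 CPM in him-8. In both, him-8 replicate 1 lay just under the met-2;him-8 libraries, and the fold change without him-8 replicate 2 was 0.06 for col-143 and 0.10 for col-93 on the log2 scale.

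No col gene passed the adjusted threshold between the genotypes in edgeR with its expression filter, and DESeq2 called col-63. Of the 159 genes, 72 passed the expression filter and were tested, all 25 abundant genes among them, and 87 did not pass. edgeR called 0 of the 72, and it called 0.0% of the 10875 genes tested in all. It did not call met-2 itself (log2 fold change -2.11, adjusted p = 0.886, edgeR), which DESeq2 called (adjusted p = 0.0263). The lack of edgeR calls is thus weak evidence that levels were equal. At an unadjusted p below 0.05 there were 4 col genes, against 4.84% of all tested genes, and DESeq2 called 1 col gene, against 0.152% of the 17144 genes with reads. DESeq2 gave no adjusted p for 79 of the 144 col genes with reads. Of the 4 genes, col-40 and col-97 were higher in met-2;him-8, where the background was 1.83%, and col-63 and col-162 were lower, where it was 3.01%. Over the 25 abundant genes the log2 fold change ranged from -0.06 to 1.52 with a median of 0.46, and adjusted p ranged from 0.891 to 0.999 in edgeR. The median over all tested genes was 0.02. Without him-8 replicate 2, the median of the 25 was -0.12 and 8 of them were above 0, and without him-8 replicate 1 it was 1.48 and all 25 were above 0. The tests therefore gave no direction for the abundant genes that held whichever him-8 library was left out. Each fit without a him-8 library left only 1 library of that genotype, so no counts of calls are given for it.

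**Figure D2:**
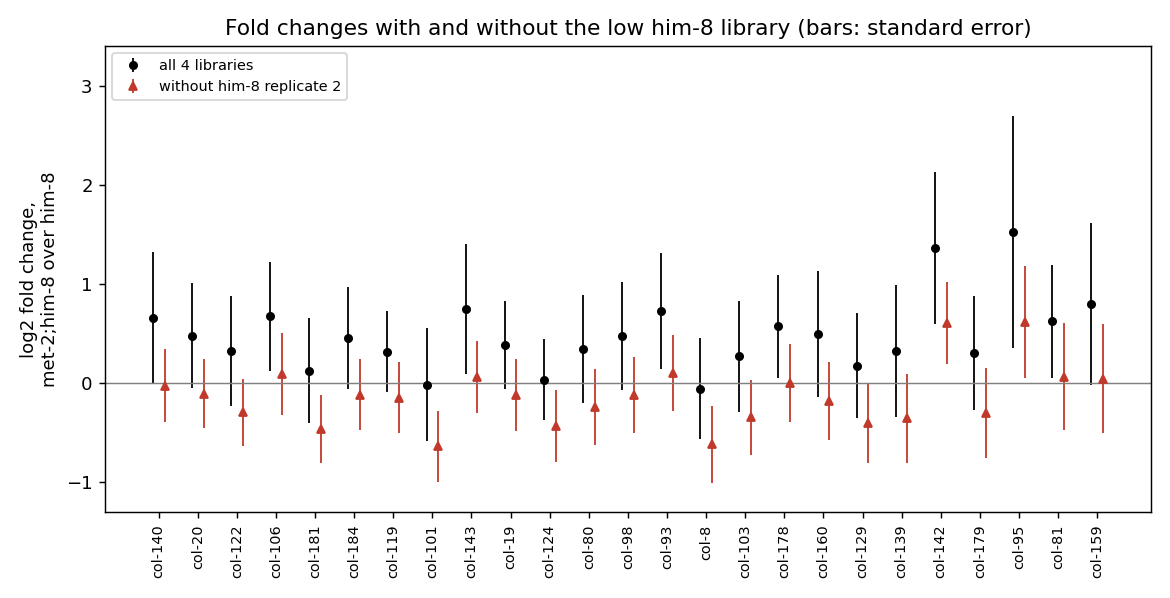
Log2 fold change, met-2;him-8 over him-8, of the 25 abundant col genes from edgeR, with bars of 1 standard error, from all 4 libraries (circles) and without him-8 replicate 2 (triangles). Values above 0 are higher in met-2;him-8, and the median moves from 0.46 to -0.12 when that library is left out.

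The libraries of the genotypes did not overlap for 39 col genes. In 27 of the 144 genes with reads, or 18.8%, each met-2;him-8 library was higher than each him-8 library, against 12.5% of all genes with reads. In 12 genes, or 8.33%, each was lower, against 18.9% of all genes. The remaining 105 genes overlapped. These counts also moved with the him-8 library used. Without him-8 replicate 2, 27 genes were higher (18.8%, against 18.6% of all genes) and 59 were lower (41.0%, against 36.1%), so that both shares lay near those of all genes. Without him-8 replicate 1, 65 genes were higher (45.1%, against 22.9% of all genes) and 24 were lower (16.7%, against 29.6%).

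Among the low-abundance genes, col-63 had the most negative log2 fold change of the 72 tested col genes. It had 2 and 4 reads in met-2;him-8 replicates 1 and 2, and 288 and 102 reads in him-8 replicates 1 and 2. The gene (ZK265.2, chromosome I, 8243748 to 8244942, minus strand) overlaps no exon of another coding gene and does not neighbour another col gene. In CPM its levels were 0.104 and 0.120 in met-2;him-8 and 5.55 and 7.45 in him-8. Unlike the abundant genes, col-63 was not low in him-8 replicate 2, which was its highest library, and the gap between genotypes exceeded the spread within either. Pooled over replicates, its reads were 52.2-fold more frequent in him-8, with an exact 95% interval from 23.8 to 143 that covers counting error only. Its fold change in edgeR was -5.79 on the log2 scale (standard error 0.64, unadjusted p = 0.000246, adjusted p = 0.886), and DESeq2 gave it an adjusted p of 8.4e-08. Leaving out each library in turn moved the log2 fold change only between -5.99 and -5.57. The mean RPKM of the authors' table, pooled over replicates, was 0.0865 in met-2;him-8 gonads against 5.23 in him-8 gonads.

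**Figure D3:**
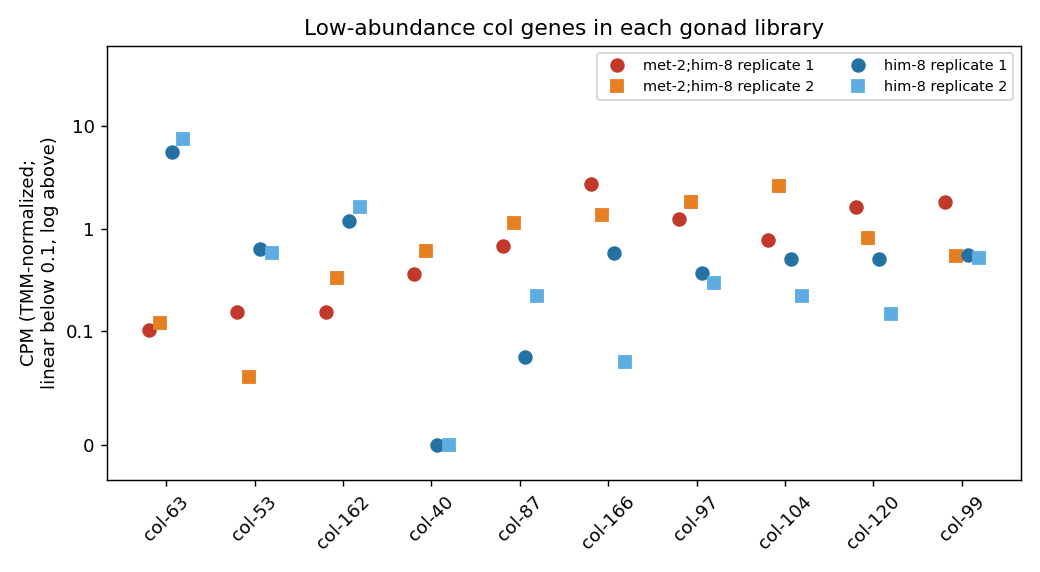
TMM-normalized CPM (linear below 0.1, log above) of 10 low-abundance col genes named in the text, with 1 point for each library. For col-63 both him-8 points lie above 5 CPM and both met-2;him-8 points near 0.1 CPM, and for col-40 both him-8 points lie at 0.

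The other low-abundance genes with lower met-2;him-8 libraries rested on fewer reads than col-63. Lower in met-2;him-8 was col-162 (chromosome V, 13441953 to 13443357), with 3 and 11 reads in met-2;him-8 and 62 and 22 reads in him-8. Its log2 fold change in edgeR was -2.47 (standard error 0.89, unadjusted p = 0.0387, adjusted p = 0.886). Similarly low counts were seen for col-53 (chromosome I), with 3 and 2 reads in met-2;him-8 and 33 and 8 reads in him-8. An exon of col-53 overlaps the coding gene F55F8.2 on the opposite strand, and whether the counting used strand is not known, so its reads may in part belong to that gene. These 3 genes were the only ones that passed the expression filter among the 12 with lower met-2;him-8 libraries.

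Among genes with higher met-2;him-8 libraries, col-40 (T13B5.4, chromosome II, 1104617 to 1106930) had 7 and 20 reads in met-2;him-8 and is listed at 0 in both him-8 libraries. With 3 reads over the him-8 libraries together as the floor, and its own reads taken as exact, its level was 11.2-fold higher in met-2;him-8. Its unadjusted p was 0.0202 (adjusted p = 0.886, edgeR). For col-97 (chromosome III) there were 24 and 60 reads in met-2;him-8 and 19 and 4 reads in him-8, or 1.24 and 1.80 CPM against 0.366 and 0.292 CPM. The log2 fold change of col-97 was 2.18 (standard error 0.80, unadjusted p = 0.0414, adjusted p = 0.886 from edgeR), and an exon of it overlaps the coding gene ZK1010.12. Both genes thus had separated libraries at low counts. Levels of col-87 were 0.673 and 1.14 CPM in met-2;him-8 and 0.0771 and 0.219 CPM in him-8, and it overlaps xrn-1. The gene col-166 had 52 and 45 reads in met-2;him-8 and 30 and 1 reads in him-8. Its log2 fold change of 2.48 (standard error 1.08) became 1.79 without him-8 replicate 2. The last of these, col-104 and col-120, had log2 fold changes of 2.15 (standard error 0.99) and 1.79 (standard error 0.996), and both were lowest in him-8 replicate 2.

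Reads in a single genotype were seen for 27 of the 144 genes with reads, or 18.8%, against 17.3% of all genes with reads. With 3 reads over the genotype listed at 0 as the floor, and the reads of the other genotype taken as exact, the ratio was above 1 for 14 of the 27. Some of these, such as col-61 and col-115, rested on 3 reads. Only in met-2;him-8 there were 7 genes with between 1 and 27 reads, of which col-40 had the most. Only in him-8 there were 20 genes with between 1 and 49 reads. The highest of these, col-62, had all of its 49 reads in him-8 replicate 1 and none in him-8 replicate 2, so its groups overlapped at 0.

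Members outside the abundant group did not all share its order, and examples picked from them follow. Levels of col-135, the first gene under the gap, were 6.42 and 9.35 CPM in met-2;him-8 and 8.94 and 14.97 CPM in him-8, so him-8 replicate 2 was its highest library. For col-38 they were 6.52 and 6.48 CPM in met-2;him-8 and 5.16 and 5.26 CPM in him-8, a small gap with a close pair on each side. The transmembrane collagen col-99 (chromosome IV, 138760 to 144950), which is not a cuticle component of the usual secreted type, had 35 and 18 reads in met-2;him-8 and 29 and 7 reads in him-8. Its levels, 1.81 and 0.540 CPM against 0.559 and 0.511 CPM, set met-2;him-8 replicate 1 apart from the other 3 libraries. An exon of col-99 overlaps daf-1. By contrast col-147, at 4.35 and 6.96 CPM in met-2;him-8 and at 8.61 and 0.877 CPM in him-8, had the order of the abundant genes at a much lower level.

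The abundant genes were spread over the genome, with an exception on chromosome I. Chromosome I holds 22 col genes and none of the 25 abundant ones. The counts of abundant genes among all col genes were 3 of 25 on II, 4 of 12 on III, 7 of 42 on IV, 6 of 30 on V and 5 of 28 on X. Of the 15 genes listed at 0, 6 lie on X. Immediate neighbours of another col gene were 10 of the 25 abundant genes and 35 of the other 134. Levels of such neighbours, picked here with their values known, could differ widely. On chromosome III, col-93, with a mean of 118 CPM, lies between col-92, at 5.53 CPM, and col-94, at 2.17 CPM. Next to col-142, at 83.9 CPM, lies col-141, at 0.225 CPM. The neighbours col-178 and col-179 on X were both abundant, at 114 and 43.4 CPM, as were col-160 and col-159 on V, at 102 and 35.8 CPM. Annotated exons of col-160 and col-159 overlap on the same strand, so the reads of this pair may in part be shared. An exon overlaps another coding gene in 37 col genes, 8 of the 25 abundant ones among them. Sharing of reads between near-identical members was not measured, so levels of close relatives are uncertain.

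Cuticle collagens that carry other names, given for the body shape of their mutants, had very low levels. The 18 genes of this list, among them dpy-7, sqt-3, rol-6 and bli-1, summed to 12.4 and 19.04 CPM in met-2;him-8 and to 13.2 and 13.95 CPM in him-8. The ratio of him-8 replicate 1 over him-8 replicate 2 was 0.946 for this sum, against 3.17 for the 25 abundant col genes. The highest was dpy-17, with 124 and 405 reads in met-2;him-8 and 291 and 108 reads in him-8. A gene needed for cuticle furrows, dpy-7, had 12 and 2 reads in him-8 and none in met-2;him-8, and sqt-1 is listed at 0 throughout. Of the 18 genes 4 were tested, with a median log2 fold change of -0.06 and none at an unadjusted p below 0.05.

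Genes for the processing and cross-linking of collagen had a higher summed level, which a pair of genes dominated. The 11 genes summed to 748 and 664 CPM in met-2;him-8 and to 732 and 607 CPM in him-8. Most of this came from pdi-2, the disulphide isomerase subunit of prolyl 4-hydroxylase, at 421 and 300 CPM in met-2;him-8 and 344 and 267 CPM in him-8. The proprotein convertase bli-4 gave 293 and 336 CPM in met-2;him-8 and 354 and 317 CPM in him-8. This sum was also lowest in him-8 replicate 2, which was the lowest library for 5 of the 11 genes. Mean levels were below 5 CPM for 8 of the 11, and some of these varied widely, such as the peroxidase gene mlt-7 at 3.11 and 0.180 CPM in met-2;him-8 and 1.45 and 0.584 CPM in him-8. Of 9 tested genes none was at an unadjusted p below 0.05, and the median log2 fold change was 0.16. Dual oxidase bli-3, which cross-links the cuticle, was at 2.85 and 2.49 CPM in met-2;him-8 and at 3.22 and 1.61 CPM in him-8. The apical matrix and moulting list of 8 genes summed to 16.2 and 37.3 CPM in met-2;him-8 and to 12.7 and 13.1 CPM in him-8. The highest sum came from noah-1, with 804 reads in met-2;him-8 replicate 2 and 33 to 56 reads in the other libraries. The 12 basement membrane genes, which include the type IV collagens emb-9 and let-2, summed to between 369 and 489 CPM. Among 11 tested there was 1 at an unadjusted p below 0.05, ost-1, the SPARC homologue, with a log2 fold change of -0.92 (unadjusted p = 0.0164, adjusted p = 0.886, edgeR).

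**Figure D4:**
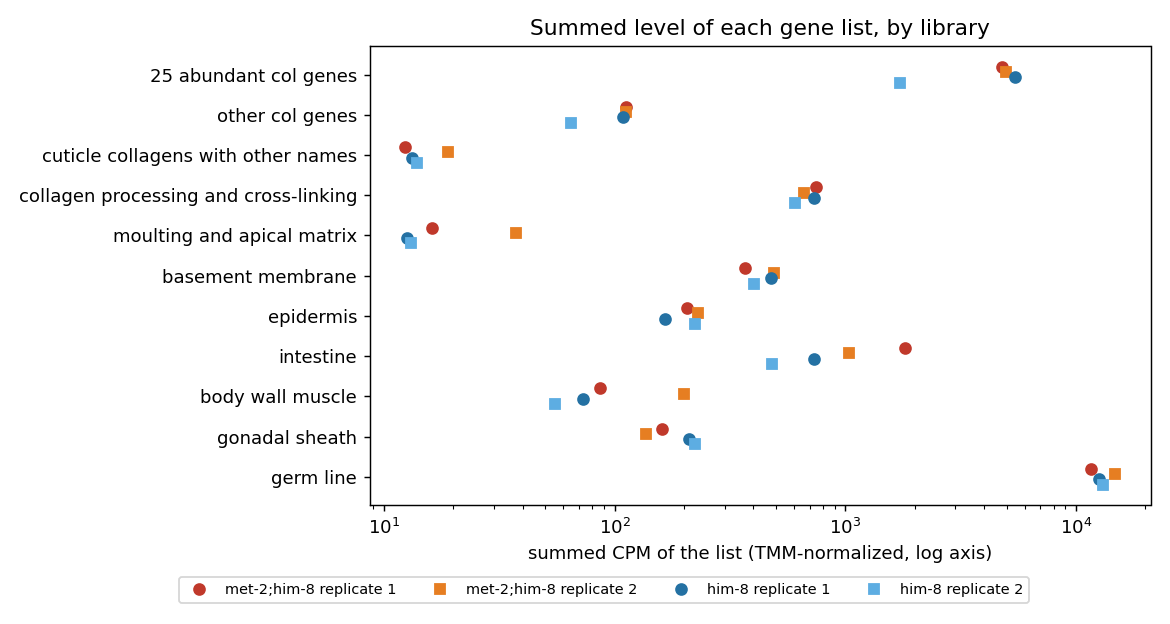
Summed TMM-normalized CPM (log axis) of each gene list, with 1 point for each library. The 25 abundant col genes and the other col genes are lowest in him-8 replicate 2, as are the collagen processing, intestine and body wall muscle lists, while the sums of the epidermis, sheath and germ line lists in him-8 replicate 2 lie among or above those of the other libraries.

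Markers of other tissues were read beside the col genes, since the gonad should lack the cells that make cuticle. The 8 epidermis genes summed to 205 and 230 CPM in met-2;him-8 and to 165 and 223 CPM in him-8, nearly all of it from lin-26 and nhr-23, and him-8 replicate 2 was the lowest library for 1 of the 8. The epidermal fate gene lin-26 was at 69.1 to 113 CPM and nhr-23 at 90.9 to 131 CPM. The other 6 were each at a mean below 5 CPM, from elt-1, at 1.45 to 3.66 CPM, down to dpy-7, at 0 to 0.231 CPM. The 6 intestine genes summed to 1811 and 1035 CPM in met-2;him-8 and to 735 and 479 CPM in him-8, and him-8 replicate 2 was the lowest for 4 of the 6. The most uneven of them, the aspartic protease gene asp-1, was at 1112 and 425 CPM in met-2;him-8 and at 291 and 51.1 CPM in him-8. The gut regulator elt-2 was at 0.0730 to 0.732 CPM. Vitellogenin genes vit-2 and vit-6 were at an unadjusted p below 0.05, with log2 fold changes of 0.55 and 0.78 (adjusted p = 0.886, edgeR). The 4 body wall muscle genes summed to 86.9 and 200.01 CPM in met-2;him-8 and to 72.9 and 55.4 CPM in him-8. At an unadjusted p below 0.05 in this list was the myosin gene unc-54, with a log2 fold change of 1.499 (unadjusted p = 0.0479, adjusted p = 0.886, edgeR). The 4 sheath genes summed to 160 and 137 CPM in met-2;him-8 and to 210 and 224 CPM in him-8. Nearly all of it came from inx-8 and inx-9, which both had lower met-2;him-8 libraries. The innexin gene inx-8 had a log2 fold change of -0.63 (unadjusted p = 0.0276, adjusted p = 0.886, edgeR). The sheath gene ceh-18 went the other way, at 2.74 and 1.77 CPM in met-2;him-8 and 1.46 and 0.803 CPM in him-8, and lim-7 overlapped. The 3 pharynx genes summed to between 0.104 and 4.20 CPM. The neuron genes summed to between 112 and 152 CPM, nearly all of it from snb-1, at 102 to 143 CPM. The sums of the genotypes did not overlap for the intestine, muscle and apical matrix lists, with met-2;him-8 on the higher side. They also did not overlap for the sheath list, with met-2;him-8 on the lower side. Intestine and muscle sums were also lowest in him-8 replicate 2, as the col sums were, and the part of other tissues in the col levels was not tested.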

How the data were processed

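Poly(A) RNA of gonads was sequenced in 2 met-2;him-8 and 2 him-8 libraries. Per the submitters' processing notes, reads were aligned with STAR and compared with Cuffdiff 2.2.1. The authors deposited an estimated count of reads for every gene and library, not scaled to depth. The tool, annotation and strand setting behind them are not given in the sources used here. The deposited Cuffdiff table holds 1 RPKM per genotype, pooled by the authors over replicates. Its fold changes, p-values and q-values were not used. Between 53 and 66 counts per library were not whole. The design assumed whole counts, so they were rounded and the planned tests kept.

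Groups came from the sample labels. The quasi-likelihood test of edgeR 4.0.16 (R 4.3.3) was run after TMM normalization and filterByExpr, without a block, and p-values were adjusted by Benjamini-Hochberg over all tested genes, with 0.05 as the threshold. Standard errors came from the fold change and the F statistic. Alternatives were RLE size factors, no filter, DESeq2 1.42.0, the replicate number as a block and each library left out in turn. Separation counts without each him-8 library were added after the data were seen. The fits were tested on simulated data. Intervals cover counting error only, and ratios over the floor of 3 reads leave out the counting error of the other genotype.

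The col genes and lists were chosen with earlier results of these data known. Named genes were the 12 with the highest mean CPM, up to 6 in each direction with the largest fold changes among tested genes with separated libraries, every gene called in any of the fits with or without the block or by DESeq2, col-19 and col-99. Other named col genes were chosen after their values were seen. Genes of other lists were named where separated, highest of their list, or for their role. A planned comparison of near-identical proteins could not be made here. Coordinates are those of the deposited table, whose build is not stated. Its starts count from 0, as tested on annotated lengths (1787 against 11 matches of 16326 genes), and are printed from 1. For 16 col genes, col-80, col-119, col-122 and col-124 included, the deposited span is over 1.5 times the annotated length. Exon lengths came from WBcel235 for 157 of 159 col genes.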

Additional observations from a re-analysis of the deposited data

How the results depend on the processing

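The number of col genes called was 0 in edgeR with RLE size factors, 3 with no filter (col-63, col-142 and col-95), 1 in DESeq2 (col-63) and 3 with a replicate block (the same genes as with no filter). Counts at an unadjusted p below 0.05 were 13 with no filter, 8 in DESeq2, 25 with the block and 1 to 29 with a library left out, the fewest without him-8 replicate 2 and the most without him-8 replicate 1. Apart from the DESeq2 calls, the share of all tested genes was not computed for these alternatives. Their counts therefore cannot be told from a general rise or fall over all genes. Each fit with a library left out also kept only 1 library of a genotype, so its count is not read as a result. The deviations of same-numbered libraries correlated at 0.358 over 10875 genes, but the replicates share only a number, and no source describes a pairing. Among genes that pass the filter, 3 had lower met-2;him-8 libraries. Leaving out either him-8 library gave 27 to 65 higher and 24 to 59 lower genes. The summed col level of met-2;him-8 replicate 1 was 5397 CPM on plain totals, 4361 without col-140 and 3913 without the 15 genes whose spans overlap another gene, and that of replicate 2 was 4587, 4371 and 4182. With each library left out in turn, log2 fold changes ranged from -0.025 to 2.03 for col-140, -0.11 to 1.48 for col-20, -0.29 to 1.41 for col-122, -0.46 to 1.14 for col-181, -0.12 to 1.43 for col-184, -0.15 to 1.01 for col-119, -0.64 to 1.10 for col-101, -0.12 to 1.16 for col-19, -0.43 to 0.72 for col-124 and -0.24 to 1.34 for col-80, and the negative end was without him-8 replicate 2. The change of col-101, near 0, was 0.00039 with RLE size factors, 0.0028 in DESeq2 and 0.23 with the block. The replicate block gave col-142 a log2 fold change of 1.80 (adjusted p = 0.00117, edgeR), col-95 one of 2.41 (adjusted p = 0.000186) and col-63 one of -5.82 (adjusted p = 2.36e-07), and of the other lists it called noah-1 (adjusted p = 0.0126) and asp-1 (adjusted p = 3.04e-09). The cause of these shifts was not tested.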
